A study of Homo sapiens with 60 samples.

Results

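The comparison of Medium 2 with Medium 1 under exposure to kynurenine alone was made in spheroids of HCT116, an established line of human colorectal carcinoma cells. The sample titles and the column names chose 10 of the 60 libraries of the series: the 5 that carry Medium 2 with kynurenine and the 5 that carry Medium 1 with kynurenine. The base medium of both groups was DMEM of high glucose content, with fetal bovine serum at 10% and with antibiotics and non-essential amino acids at 1% each. Both groups received kynurenine at 1 µM from day 1 to day 8, so by label they differ in the medium alone. The other 50 libraries received no compound, butyrate, hemin, kynurenic acid or hemin plus kynurenine, each in both media. The series design speaks of sampling either directly or following 3 h without nutrients, and the labels do not tie either step to Medium 1 or to Medium 2. The media are therefore called by their numbers throughout. HCT116 is a single line, and all libraries of a group come from it.

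Kynurenine is a breakdown product of tryptophan that enters cells through large neutral amino acid transporters and can act as a ligand of the aryl hydrocarbon receptor (AHR). Bound AHR moves to the nucleus, pairs with ARNT and switches on the cytochrome P450 genes CYP1A1 and CYP1B1 together with its own inhibitors AHRR and TIPARP. Shortage of amino acids or glucose is sensed by other routes, among them the integrated stress response, in which the factor ATF4 drives genes for amino acid supply and cell death, and the unfolded protein response of the endoplasmic reticulum.

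RNA was counted at transcript 3′ ends with unique molecular identifiers, short random tags that let copies of 1 molecule be counted once. Levels are given as CPM, which expresses the counts of a gene relative to the total of its library after scaling between libraries. Because the read comes from the transcript end, CPM does not grow with gene length. The libraries are named by their plate wells: F6, G6, H6, A7 and B7 hold Medium 2 and H2, A3, B3, C3 and D3 hold Medium 1. Values per library are listed in that order. In plate order all Medium 2 libraries of the series follow all Medium 1 libraries, so medium and plate position cannot be told apart. In bulk RNA, fewer cells of a type and less RNA per cell cannot be told apart.

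The library in well A7 stood apart. Its root-mean-square distance from the mean of the other libraries of its group, over log2 CPM, was 0.768, against 0.335 to 0.636 for the other 59 libraries. Its median correlation with the libraries of its own group was 0.909, against 0.929 to 0.973 elsewhere. On the first principal component of the series it lay at −13.5, while the other 4 Medium 2 kynurenine libraries lay between 8.7 and 23.9 and the 5 Medium 1 libraries between −17.8 and −7.9. Totals were 1639949 counts in A7 and up to 2381002 counts in the other Medium 2 kynurenine libraries, against 1417058 to 2133883 counts in Medium 1. Of 7304 genes above a level filter, 593 were more than 1 log2 unit lower and 345 more than 1 unit higher in A7 than in the mean of the other 4; the same count for each of the other 9 libraries gave 6 to 130 lower and 4 to 104 higher. The deviation of A7 from its group also ran with the GC content of the transcript end (correlation across genes 0.374, against −0.285 to 0.317 in the other libraries). The part of these features in the results was not tested, and the list counts below are given with A7 and without it where they differ.

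**Figure D1:**
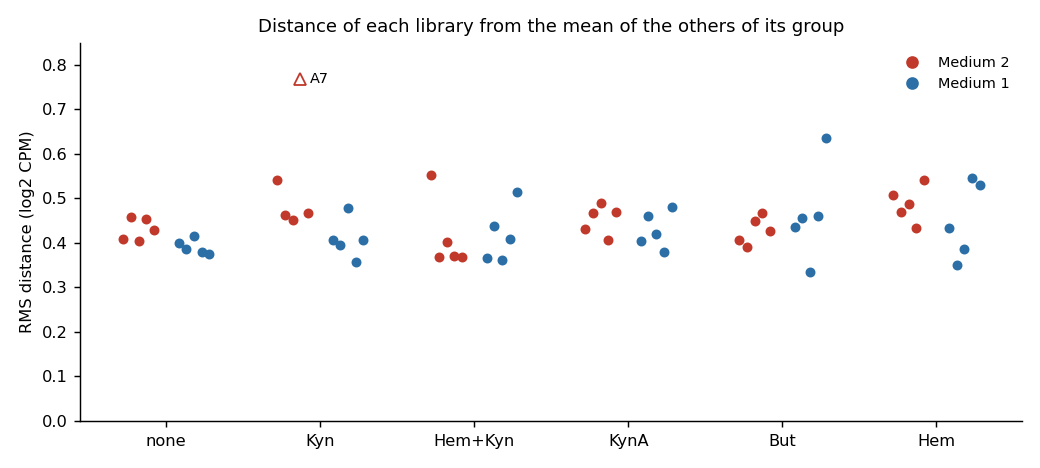
Root-mean-square distance of each of the 60 libraries from the mean of the other libraries of its group (log2 CPM, vertical axis), by treatment and medium, with Medium 2 left of Medium 1. The kynurenine library in well A7 lies at 0.768 and the other 59 between 0.335 and 0.636.

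Some genes stood apart in A7. PLEC, which encodes the cytoskeletal linker plectin, had 260 CPM in A7, against a mean of 65.7 CPM in the other 4 Medium 2 libraries. TMEM63B, an osmosensitive ion channel, had 0 CPM in A7, against a mean of 30.6 CPM in the other 4. TANGO2, LRWD1, LIMS2, RN7SL1, MAPK8IP3, ABCA7 and CRIP2 were the other genes of the 8 highest by the naming rule, and TMSB4X, which binds actin monomers, and the transcription co-regulator CITED2 were among the 8 lowest. These genes describe the library and were not tested.

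Among 11298 tested genes, 421 were higher (3.73%) and 484 lower (4.28%) in Medium 2 than in Medium 1 at an adjusted p under 0.05, together 905 or 8.01%. The adjusted p comes from the quasi-likelihood F-test of edgeR, with Benjamini-Hochberg adjustment over all tested genes, and is the one quoted for every single gene. A total of 2512 genes had an unadjusted p under 0.05, and the median log2 fold change of all tested genes was −0.01. Without A7 the counts were 437 higher (3.83%) and 385 lower (3.38%) of 11396 genes, together 7.21%. Of the calls, 304 higher and 325 lower genes were shared by both fits, and 0 genes were called in opposite directions. The fits share every library but A7, so this agreement is largely built in. Of genes called higher without A7, A7 itself lay above the Medium 1 mean for 76.7%. The same share was 84.8% to 97.1% for the other Medium 2 kynurenine libraries, each left out in turn. For lower genes A7 lay below that mean in 87.7%, against 90.5% to 97.7%. Over all tested genes, every Medium 2 library lay above every Medium 1 library for 262 genes (2.32%) and below for 381 genes (3.37%). The naming rule took its 12 largest rises and 12 largest falls only from genes whose libraries did not overlap between the media. For those genes the lack of overlap described below was thus set by the rule and is no separate result. The 12 largest rises by the naming rule, described below by pathway, also took in TSC22D3, a leucine zipper gene induced by glucocorticoids, at 32.1 ± 4.24 CPM in Medium 2 and 11.9 ± 5.38 CPM in Medium 1 (SD, n = 5 each, log2 fold change 1.40, adjusted p = 6.76e-05). Fitting the 10 kynurenine libraries alone gave 139 higher and 198 lower genes, and fitting the 9 of them other than A7, an alternative added after the data were seen, gave 293 higher and 345 lower genes.

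**Figure D2:**
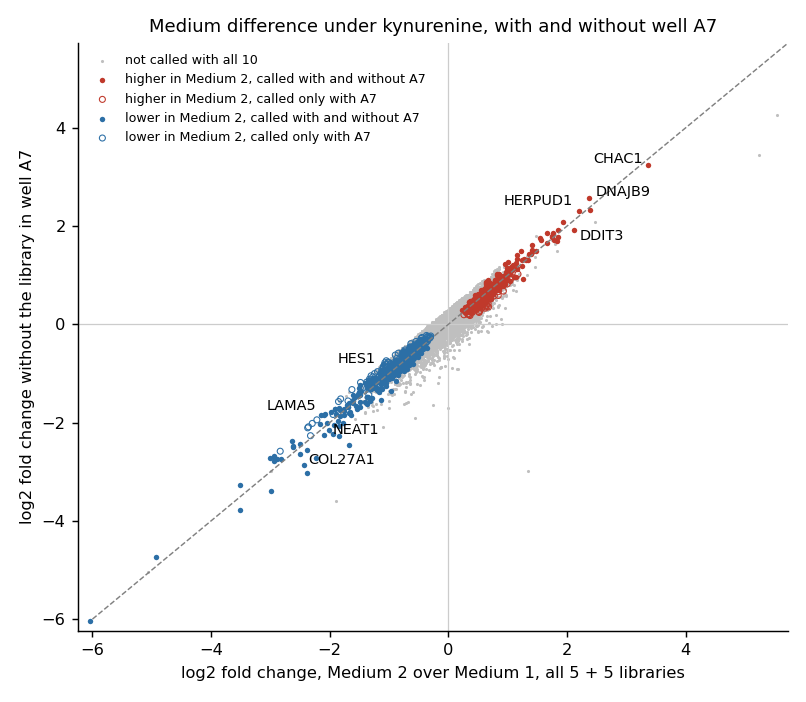
Log2 fold change of Medium 2 over Medium 1 under kynurenine for each gene, with the library in well A7 (horizontal axis) and without it (vertical axis). Genes called in both fits (304 higher, 325 lower) are filled points, and 0 genes are called in opposite directions. The fits share every library but A7, so closeness to the diagonal is largely built in.

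Part of the integrated stress response was higher in Medium 2. Its largest rises were in CHAC1 and DDIT3. Of 29 tested members, 13 were called higher and 0 lower, with a median log2 fold change of 0.49, against 3.73% of all genes called higher and a median of −0.01. Without A7 14 were called higher, and leaving out any 1 library gave 12 to 15. By role, 8 of 11 transcription factors and regulators, 3 of 10 enzymes of amino acid and one-carbon metabolism and 2 of 8 amino acid transporters (3 without A7) were called higher.

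CHAC1, which breaks down glutathione and is induced by ATF4, had 41.8, 35.8, 22.3, 50.1 and 28 CPM in Medium 2, against 4.07, 0.537, 4.40, 5.25 and 2.39 CPM in Medium 1. Every Medium 2 library, A7 the highest among them, lay above every Medium 1 library. The means were 35.6 ± 11 CPM in Medium 2 and 3.33 ± 1.88 CPM in Medium 1 (SD, n = 5 each), with a log2 fold change of 3.37 (SE 0.37) and an adjusted p of 1.38e-09, the largest rise among the genes the rule named. DDIT3, which encodes the pro-apoptotic factor CHOP, had 62.7, 80.0, 55.4, 113 and 47.2 CPM in Medium 2, against 15.4, 16.6, 13.2, 19.1 and 17.3 CPM in Medium 1. Again the groups did not overlap and A7 was highest (log2 fold change 2.11, SE 0.21, adjusted p = 5.3e-11).

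DDIT4 and SESN2, inhibitors of the growth kinase mTORC1, rose with them. DDIT4, also called REDD1, averaged 297 ± 132 CPM in Medium 2 and 82.8 ± 20.6 CPM in Medium 1 (SD, n = 5 each), with a log2 fold change of 1.85 (adjusted p = 3.2e-08). SESN2, which senses leucine, averaged 52.1 ± 9.74 CPM in Medium 2 and 21.8 ± 3.24 CPM in Medium 1 (log2 fold change 1.25, adjusted p = 1.53e-06). The libraries of the media did not overlap for either gene. They were the 2 called of 12 tested negative regulators of mTORC1 (16.7%, against 3.73% of all genes), with 0 lower. The list as a whole did not rise: its median log2 fold change was 0.06 (0.01 without A7), and 6 of the 12 were positive. The stress cytokine GDF15 rose by 0.98, the factor ATF3 by 1.00, the hormone STC2 by 0.85, the factor CEBPB by 0.76 and the mitochondrial folate enzyme MTHFD2 by 0.63 on the log2 scale. SLC1A4, an exchanger of small neutral amino acids, was low, at 6.71 ± 1.77 CPM in Medium 2 and 1.76 ± 0.745 CPM in Medium 1 (SD, n = 5 each, log2 fold change 1.83, adjusted p = 0.00336).

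Not every ATF4 target was called. ASNS, the asparagine synthetase gene, had 121, 126, 106, 122 and 76.3 CPM in Medium 2, against 84.5, 87.5, 66.1, 85 and 63.9 CPM in Medium 1. The libraries overlapped through B7, and the log2 fold change of 0.50 (95% interval 0.02 to 0.98) did not pass (adjusted p = 0.204). ATF4 itself had a log2 fold change of 0.11 (adjusted p = 0.788). SLC7A5, which forms the light chain of the large neutral amino acid transporter that carries kynurenine, averaged 247 ± 57.8 CPM in Medium 2 and 165 ± 14.4 CPM in Medium 1 (SD, n = 5 each, log2 fold change 0.59, adjusted p = 0.0117). F6, at 171 CPM, lay below H2 and B3, at 174 and 184 CPM, and without G6 the call was lost (adjusted p = 0.0636).

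The unfolded protein response was led by a few genes. Of 23 tested members, 6 were called higher (26.1%, against 3.73% of all genes) and 0 lower, with a median of 0.13. The higher count was 6 without A7 and 5 to 6 on leaving out 1 library. HERPUD1, which helps to clear misfolded proteins from the endoplasmic reticulum, had 631, 420, 540, 380 and 643 CPM in Medium 2, against 127, 101, 135, 96.9 and 112 CPM in Medium 1. A7 was the lowest of Medium 2 and still far above every Medium 1 library. The means were 523 ± 120 CPM in Medium 2 and 114 ± 16.3 CPM in Medium 1 (SD, n = 5 each), with a log2 fold change of 2.19 (SE 0.17) and an adjusted p of 1.74e-15, the smallest among the named genes. DNAJB9, a co-chaperone of the sensor IRE1, had 66.9, 43.6, 57.2, 24.7 and 64.9 CPM in Medium 2, against 11.8, 10.7, 8.07, 10.0 and 8.36 CPM in Medium 1. The groups did not overlap, with A7 again lowest of Medium 2 (log2 fold change 2.37, adjusted p = 1.38e-09). The stress factor XBP1 rose by 0.72 and the chaperone HSPA5 by 0.49 on the log2 scale.

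Stretches of 250 bases upstream of the start of HERPUD1 and CHAC1 are shown. Among the named genes CHAC1 had the largest rise and HERPUD1 the smallest adjusted p. HERPUD1 lies at chr16:56932142-56944864 and CHAC1 at chr15:40953471-40956512, both on the plus strand of RefSeq GRCh38.p14, and the stretches run from chr16:56931892-56932141 and chr15:40953221-40953470. Capitals mark the endoplasmic reticulum stress element ERSE-II, which reads ATTGG, any base and CCACG, and the C/EBP-ATF response element core TTGCATCA.
HERPUD1: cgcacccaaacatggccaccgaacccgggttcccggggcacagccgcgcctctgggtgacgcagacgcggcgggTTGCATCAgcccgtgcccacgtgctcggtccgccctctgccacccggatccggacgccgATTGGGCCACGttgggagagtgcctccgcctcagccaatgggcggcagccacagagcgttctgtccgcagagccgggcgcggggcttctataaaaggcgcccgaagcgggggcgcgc
CHAC1: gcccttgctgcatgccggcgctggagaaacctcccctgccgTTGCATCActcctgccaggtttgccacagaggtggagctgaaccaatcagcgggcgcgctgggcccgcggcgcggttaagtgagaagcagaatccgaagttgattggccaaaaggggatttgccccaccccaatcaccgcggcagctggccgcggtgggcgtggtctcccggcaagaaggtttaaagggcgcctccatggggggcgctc
Both strands were searched. HERPUD1 holds ERSE-II from base −117, counted back from the start, and TTGCATCA from base −176, and CHAC1 holds TTGCATCA from base −209. The ERSE-II match shares bases with a match on the minus strand to ACGTG, a motif described further on. Of 27305 promoters of this length, 14 held ERSE-II (0.0513%) and 224 held TTGCATCA (0.82%). Among 325 higher genes with a promoter in the table, 2 held ERSE-II (0.615%) and 3 held TTGCATCA (0.923%), and among 364 lower genes 0 held either. Among all 8403 tested genes with a promoter the shares were 0.119% and 0.369%. Most other stress genes searched held neither motif in this stretch, namely DNAJB9, DDIT3, ATF3, TRIB3, ASNS, SESN2, DDIT4, HSPA5 and XBP1. SDF2L1 held ERSE-II and no TTGCATCA. For these motifs the 2 promoters shown are thus not typical of these genes. Another endoplasmic reticulum stress element, ERSE, was also searched. HSPA5 and XBP1 each held 1 match to ERSE, and HERPUD1 and CHAC1 held 0. ERSE stood in 3 of the 325 promoters of higher genes (0.923%) and in 0 of those of lower genes. Its share among all tested genes with a promoter was 0.143%. A match is a run of letters and not a shown binding site.

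**Figure D3:**
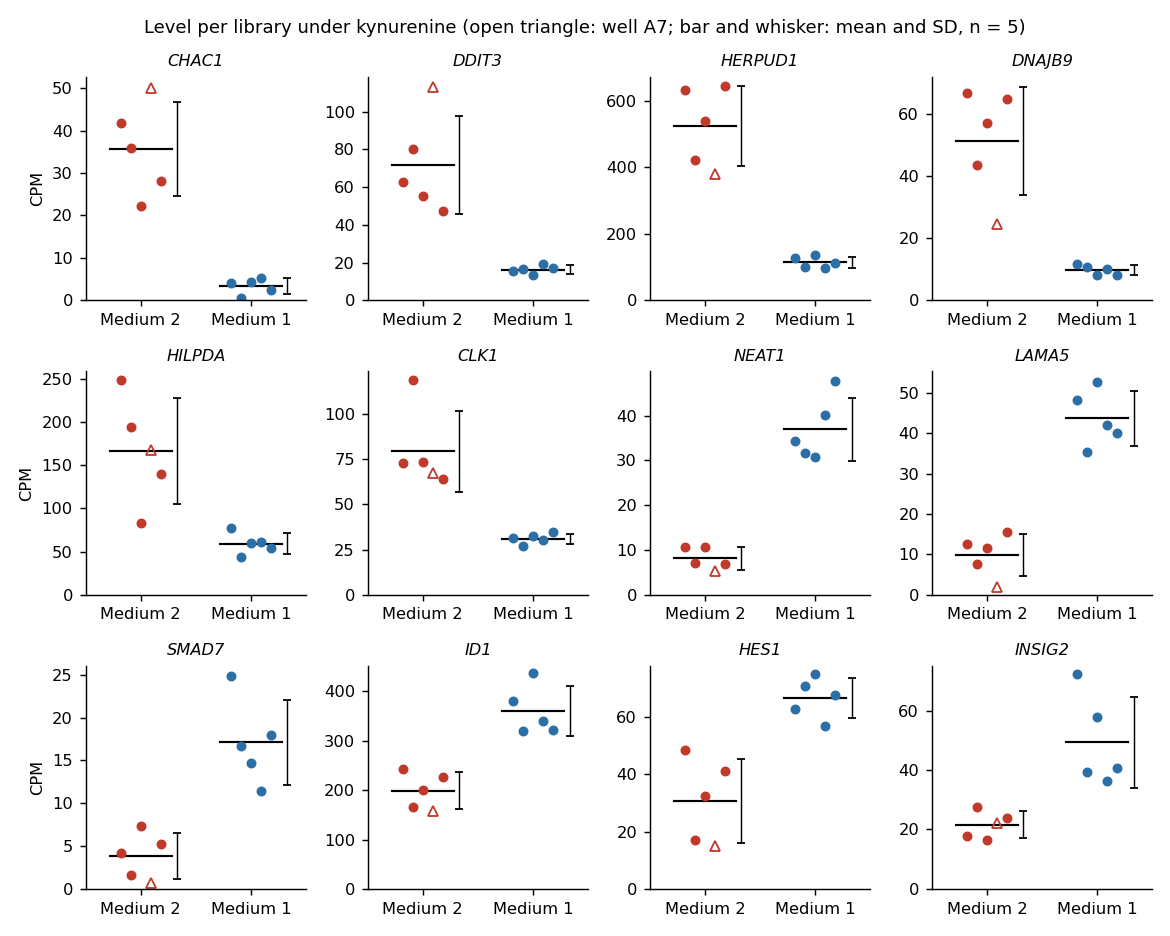
CPM on a linear scale (vertical axis) in each kynurenine library for 12 genes, with Medium 2 left of Medium 1. The library in well A7 is an open triangle, and bars stand at the group means. CHAC1, DDIT3, HERPUD1, DNAJB9, HILPDA and CLK1 lie higher in every Medium 2 library than in every Medium 1 library, while NEAT1, LAMA5, SMAD7, ID1, HES1 and INSIG2 lie lower. For genes named as largest rises or falls, the lack of overlap was a condition of the naming.

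Both groups had received the AHR ligand, and AHR targets were still higher in Medium 2. Of 8 tested members, 3 were called higher (37.5%, against 3.73% of all genes) and 0 lower, with a median of 0.21. The counts were the same without A7 and on leaving out any other library. CYP1A1, which oxidises aromatic compounds, had 35.3, 25.9, 30.1, 17.6 and 36.9 CPM in Medium 2, against 8.59, 5.37, 6.61, 7.64 and 9.56 CPM in Medium 1. A7 was the lowest Medium 2 library, and all 5 lay above all of Medium 1. The means were 29.1 ± 7.78 CPM in Medium 2 and 7.55 ± 1.64 CPM in Medium 1 (SD, n = 5 each), with a log2 fold change of 1.94 (SE 0.23) and an adjusted p of 1.52e-08. CYP1B1, a related enzyme, averaged 45.4 ± 4.23 CPM in Medium 2 and 20.3 ± 5.88 CPM in Medium 1 (log2 fold change 1.16, adjusted p = 0.000923). AHRR, the repressor that competes with AHR, averaged 15.3 ± 3.03 CPM in Medium 2 and 6.26 ± 2.44 CPM in Medium 1 (log2 fold change 1.32, adjusted p = 0.00647). Neither gene had overlapping libraries. AHR itself averaged 37.6 ± 4.71 CPM in Medium 2 and 36 ± 3.35 CPM in Medium 1, a difference smaller than the spread between libraries (log2 fold change 0.05, 95% interval −0.35 to 0.46, adjusted p = 0.917).

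TIPARP, which modifies AHR and ends its signal, did not follow the other targets. It had 75.9, 39.2, 79.1, 39.7 and 91.9 CPM in Medium 2, against 82.3, 96.6, 107, 67.8 and 81.8 CPM in Medium 1. G6 and A7 were far below the other Medium 2 libraries, and the groups overlapped. The log2 fold change was −0.41 (95% interval −0.82 to 0.01, adjusted p = 0.234). Of the genes of kynurenine uptake and metabolism, 7 were tested and 2 called higher (28.6%, against 3.73% of all genes), SLC7A5 and GOT2. GOT2, an aminotransferase that also converts kynurenine, had a log2 fold change of 0.38, and its call was lost without A7 (adjusted p = 0.186), G6, H2, A3 or D3. The count was thus 1 without A7, H2, A3 or D3 and 0 without G6. ACMSD, GPR35, HAAO, IDO1, KMO, KYNU, QPRT and TDO2 had too few counts to be tested.

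In untreated spheroids the difference between the media in TIPARP ran the other way. Untreated spheroids had 98.4 ± 18.6 CPM in Medium 2 and 37.4 ± 7.37 CPM in Medium 1, while kynurenine-exposed spheroids had 65.1 ± 24.2 CPM in Medium 2 and 87.1 ± 15.1 CPM in Medium 1 (SD, n = 5 each). The medium difference was thus 1.80 log2 units smaller with kynurenine than without (interaction −1.80, SE 0.30, adjusted p = 0.00117). The test passed in 19 of 19 alternatives, with adjusted p between 2.23e-05 and 0.00819, and without A7 the interaction was −1.66 (adjusted p = 0.00567). With hemin plus kynurenine TIPARP averaged 53.2 CPM in Medium 2 and 83.4 CPM in Medium 1, close to the levels with kynurenine alone. CYP1A1 by contrast was higher in Medium 2 in each of the 6 treatments. It averaged 29.1 CPM with kynurenine, 27.4 CPM with hemin plus kynurenine and 10.9 CPM untreated in Medium 2, against 7.55, 8.14 and 1.47 CPM in Medium 1. Its interaction with the untreated difference was −0.89 and did not pass.

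The 250 bases before TIPARP, which lies at chr3:156674590-156706770 on the plus strand, are shown as the promoter of the gene with the clearest interaction. The stretch is chr3:156674340-156674589 of RefSeq GRCh38.p14, and capitals mark the core of the xenobiotic response element, to which AHR binds, GCGTG, here on the minus strand and so read as CACGC.
TIPARP: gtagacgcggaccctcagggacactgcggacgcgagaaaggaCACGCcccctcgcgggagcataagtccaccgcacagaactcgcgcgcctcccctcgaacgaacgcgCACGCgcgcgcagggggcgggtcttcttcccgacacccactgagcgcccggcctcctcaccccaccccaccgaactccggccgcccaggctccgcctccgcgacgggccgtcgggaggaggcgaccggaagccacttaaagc
The matches begin at bases −208 and −142. At 5 letters the motif is common, with a match on either strand in 31.9% of all promoters, in 45.8% of those of higher genes, in 45.6% of those of lower genes and in 47.4% of those of all tested genes. The promoters of the genes called in either direction thus held it at about the share of tested genes at large.

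**Figure D4:**
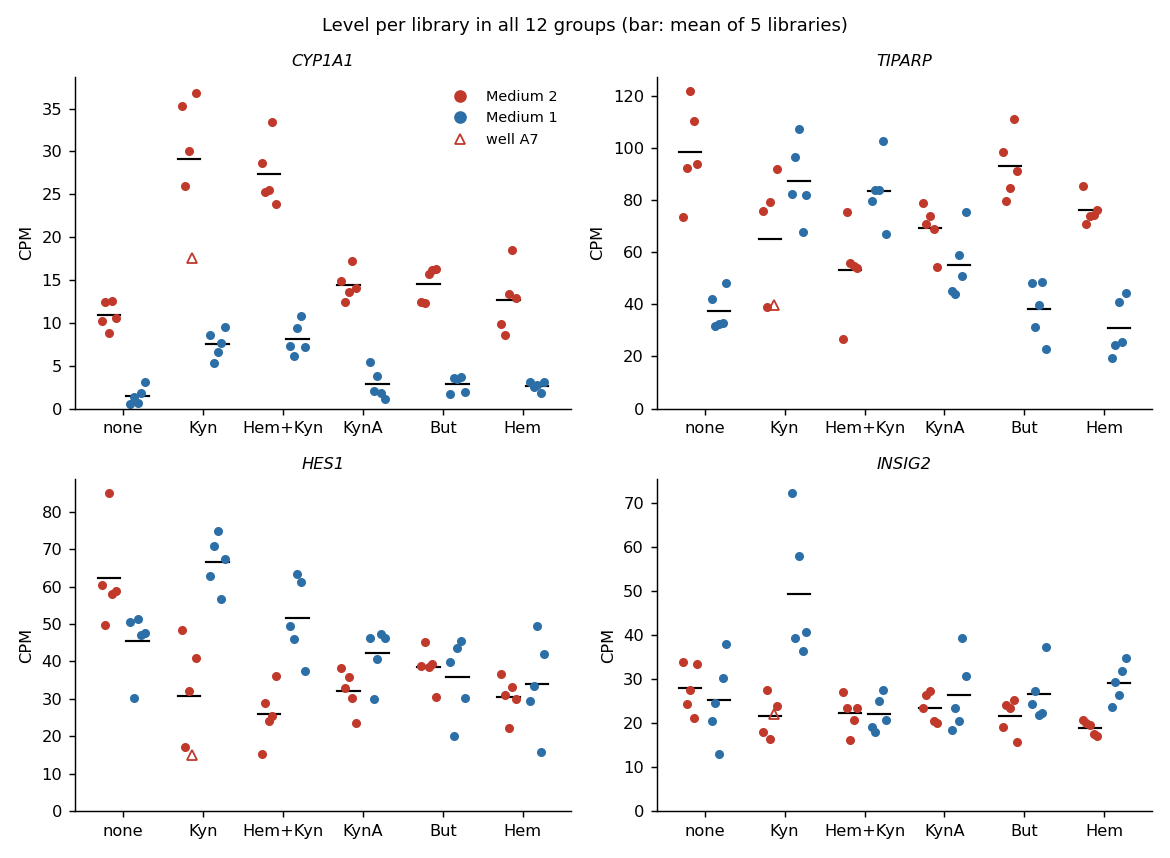
CPM (vertical axis) of CYP1A1, TIPARP, HES1 and INSIG2 in all 12 groups, with Medium 2 left of Medium 1 in each treatment, points for libraries and bars for the group mean. CYP1A1 is higher in Medium 2 in each treatment, while TIPARP averages 98.4 CPM in Medium 2 and 37.4 CPM in Medium 1 untreated, and 65.1 CPM in Medium 2 and 87.1 CPM in Medium 1 with kynurenine.

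Apart from TIPARP, 1 gene passed the interaction test against untreated spheroids, which makes 2 of 11298 (0.0177%). HES1, a repressor induced by Notch, had 48.4, 17.1, 32.2, 15 and 41 CPM in Medium 2, against 62.8, 70.8, 74.9, 56.8 and 67.5 CPM in Medium 1. Every Medium 2 library lay below every Medium 1 library (log2 fold change −1.10, adjusted p = 0.000721). Untreated spheroids averaged 62.5 CPM in Medium 2 and 45.5 CPM in Medium 1. In Medium 2 the mean was 30.7 CPM with kynurenine and between 25.9 and 38.5 CPM with the other compounds. The low Medium 2 level was thus not particular to kynurenine. In Medium 1 the mean was highest with kynurenine, at 66.6 CPM, ahead of 51.6 CPM with hemin plus kynurenine. The interaction against untreated spheroids was −1.57 (SE 0.32, adjusted p = 0.0358). It passed in 13 of 19 alternatives. The interaction call was lost without A7 (−1.40, adjusted p = 0.143), without G6 (adjusted p = 0.0903), without H6 (adjusted p = 0.066), without B3 (adjusted p = 0.114) and without D3 (adjusted p = 0.0619). DDIT4 (interaction −1.41, adjusted p = 0.0932), INSIG2 (−1.35, adjusted p = 0.0721) and EGR1 (−0.97, adjusted p = 0.114) did not pass. Against hemin plus kynurenine, the other kynurenine exposure, 0 genes differed in their medium effect by edgeR's test, with 1037 at an unadjusted p under 0.05 and 1 by DESeq2. Without F6 that count was 27, and without any of the other 9 kynurenine libraries it was 0; the hemin plus kynurenine libraries were not left out. Against the mean of the other 5 treatments 0 genes passed by edgeR, with 766 at an unadjusted p under 0.05 and 1 by DESeq2, and the smallest adjusted p was 0.0542, for TIPARP (difference −1.14).

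Across all genes, 721 were called between the media in untreated spheroids, 304 higher (2.69%) and 417 lower (3.69%). These groups share no library with the kynurenine groups. Of them 379 were also called under kynurenine in the same direction, which is 41.9% of the kynurenine calls and 52.6% of the untreated calls. All 13 called integrated stress response members and all 6 called unfolded protein response members had the same sign in untreated spheroids, as did 875 of all 905 genes called under kynurenine (96.7%).

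Targets of the hypoxia-inducible factors, which respond to low oxygen, split in direction. Of 24 tested members, 5 were called higher (20.8%) and 4 lower (16.7%), against 3.73% and 4.28% of all genes. The median was −0.11, and without H6 the lower count was 2. ANKRD37, an ankyrin-repeat protein, had 175, 156, 35.2, 162 and 130 CPM in Medium 2, against 35.3, 22.5, 20.6, 21 and 23.9 CPM in Medium 1. H6 alone of Medium 2 lay among the Medium 1 values, at the level of H2 (log2 fold change 2.39, SE 0.27, adjusted p = 4.64e-09). HILPDA, a lipid droplet protein, had 249, 195, 83.0, 168 and 140 CPM in Medium 2, against 76.9, 43.5, 60.2, 61.1 and 54.4 CPM in Medium 1. Here H6 was again the lowest of Medium 2 without reaching Medium 1 (log2 fold change 1.48, adjusted p = 1.36e-07). The circadian repressor BHLHE40 rose by 1.66, the vasodilator peptide gene ADM by 1.76 and the angiogenic factor VEGFA by 0.85 on the log2 scale. ADM spread from 30.1 CPM in H6 to 198 CPM in F6 in Medium 2, against 20.5 to 30.5 CPM in Medium 1.

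The lower members were metabolic, apart from the histone demethylase KDM4B (log2 fold change −0.73), whose call was lost without F6, G6, H6, H2, C3 or D3 (highest adjusted p = 0.0946, without H6). PFKFB4, which sets the level of the glycolytic activator fructose 2,6-bisphosphate, had 6.57, 8.27, 7.74, 11.1 and 7.79 CPM in Medium 2, against 33, 36, 30.1, 19.6 and 22.1 CPM in Medium 1. No libraries overlapped (log2 fold change −1.76, SE 0.30, adjusted p = 4.95e-05). INSIG2, which holds back sterol synthesis, averaged 21.6 ± 4.54 CPM in Medium 2 and 49.3 ± 15.4 CPM in Medium 1 (SD, n = 5 each, log2 fold change −1.20, adjusted p = 5.41e-05), also without overlap. P4HA2, a collagen prolyl hydroxylase, had a log2 fold change of −1.03, and without H6 its adjusted p was 0.0529. In the separate list of glucose uptake and glycolysis, the 1 lower call was SLC2A1, the glucose transporter GLUT1. SLC2A1 fell by 0.64 on the log2 scale, and without H6 its adjusted p was 0.0526. Glycolytic enzymes did not fall with it: of 18, 3 were called higher (1 without A7, 1 without A3) and 0 lower. Of all genes, 3.73% were called higher and 4.28% lower.

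The promoter of ANKRD37, the largest rise among these targets, is shown at chr4:185396591-185396840 of RefSeq GRCh38.p14, just before the gene at chr4:185396841-185400723 on the plus strand. Capitals mark the core of the hypoxia response element, ACGTG on either strand.
ANKRD37: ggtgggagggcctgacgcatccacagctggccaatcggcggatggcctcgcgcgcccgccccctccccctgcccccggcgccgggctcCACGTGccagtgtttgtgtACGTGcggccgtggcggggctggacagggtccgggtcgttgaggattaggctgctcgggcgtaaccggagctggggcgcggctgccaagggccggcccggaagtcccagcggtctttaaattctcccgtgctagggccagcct
The matches begin at base −162 on the minus strand, at base −161 on the plus strand, overlapping it, and at base −143 on the plus strand. A match on either strand stood in 18.7% of all promoters, in 24.1% of those of tested genes, in 23.4% of those of higher genes and in 22.3% of those of lower genes.

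Signalling genes with short-lived RNA rose in part. Of 28 tested immediate early genes, 7 were called higher and 1 lower, with a median of 0.24, and without A7 9 were called higher. EGR1, a zinc finger factor, had 319, 220, 153, 271 and 301 CPM in Medium 2, against 157, 180, 135, 124 and 148 CPM in Medium 1. H6 overlapped with Medium 1, and the log2 fold change was 0.76 (adjusted p = 0.000983). The AP-1 subunit gene JUN rose by 0.98 and JUNB by 0.83, while CYR61, a matricellular protein gene, had a log2 fold change of −1.10 (adjusted p = 0.011).

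MYC, a growth-driving factor, had 90.2, 37.5, 78.2, 13.7 and 92.4 CPM in Medium 2, against 72.8, 62.3, 60.9, 50.6 and 66.3 CPM in Medium 1. A7 and G6 lay below and the other 3 Medium 2 libraries above every Medium 1 library. The log2 fold change was 0.01 (95% interval −0.60 to 0.62, adjusted p = 0.991), so the spread within Medium 2 was larger than the difference of the means.

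Interferon response genes also moved in part: 9 of 24 tested were called higher (37.5%) and 1 lower (4.17%), against 3.73% and 4.28% of all genes. The median was 0.29, and without A7 10 were called higher and 1 lower. IFIT1, which binds foreign RNA, had 389, 415, 315, 418 and 348 CPM in Medium 2, against 279, 244, 200, 261 and 252 CPM in Medium 1. Medium 2 lay above Medium 1 in every library (log2 fold change 0.61, adjusted p = 0.000124). Its neighbours IFIT2 and IFIT3 rose by 0.78 and 0.70 on the log2 scale, also without overlap. The exception, DDX60, is a helicase of RNA sensing with a log2 fold change of −0.81, and without A3 its adjusted p was 0.0709. IFNL1, which encodes a type III interferon, averaged 24.5 ± 5.80 CPM in Medium 2 and 8.95 ± 3.17 CPM in Medium 1 (SD, n = 5 each, log2 fold change 1.41, adjusted p = 0.000113).

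Of 13 tested genes of NF-kB feedback and cytokines, 4 were called higher (30.8%, against 3.73% of all genes) and 0 lower. The counts were the same without A7. IL8, the chemokine gene now named CXCL8, had 56.8, 35.8, 25.8, 13.7 and 35.8 CPM in Medium 2, against 13.6, 11.8, 11.7, 6.69 and 13.7 CPM in Medium 1. A7 alone overlapped with Medium 1 (log2 fold change 1.55, adjusted p = 2.48e-05). TNFAIP3, which shuts NF-kB signalling down, averaged 23.7 ± 3.96 CPM in Medium 2 and 9.73 ± 2.28 CPM in Medium 1 (SD, n = 5 each, log2 fold change 1.28, adjusted p = 0.00185).

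The p53 targets had 7 of 22 tested members called higher (31.8%, against 3.73% of all genes) and 0 lower, with a median of 0.24. The counts were the same without A7. CDKN1A, the cell cycle inhibitor p21, had 246, 223, 240, 353 and 279 CPM in Medium 2, against 165, 172, 178, 139 and 149 CPM in Medium 1. A7 was the highest, and the groups did not overlap (log2 fold change 0.74, adjusted p = 2.59e-05). MDM2, the ligase that degrades p53, rose by 0.60 on the log2 scale, with G6 highest at 539 CPM. GDF15 and BTG2 in this list are also counted in the stress and immediate early lists.

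Genes of DNA replication were higher in part at the same time, with 7 of 34 tested called higher (20.6%, against 3.73% of all genes) and 0 lower. The median was 0.14, and without A7 6 were called higher and 1 lower. CDC6, which loads the replicative helicase, had 153, 153, 126, 146 and 137 CPM in Medium 2, against 85, 97.1, 84.4, 101 and 90.8 CPM in Medium 1. The groups did not overlap (log2 fold change 0.64, adjusted p = 0.000239). MCM10 rose by 0.59 and the helicase subunit gene MCM2 by 0.64 on the log2 scale. Of 30 tested mitosis genes, 3 were called lower (10.0%, against 4.28% of all genes) and 0 higher. Without A7 the counts were 1 lower and 1 higher. CENPE, a kinetochore motor, had a log2 fold change of −0.89 (adjusted p = 0.000136), and it was the only lower call without A7, G6, B7, A3, B3, C3 or D3.

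Changes in most growth lists were small. Of 79 cytosolic ribosomal protein genes 8 were called higher (10.1%, against 3.73% of all genes) and 0 lower. Their median was 0.18, and 72 of the 79 had a positive log2 fold change. The higher count was 4 without A3, 5 without H2 and 10 without A7. Of 46 nuclear genes of oxidative phosphorylation 6 were called higher and 0 lower (5 and 1 without A7). Their median was 0.09, and 33 of the 46 had a positive log2 fold change. The shift in these 2 lists was thus small but mostly to the higher side. In the sterol and fatty acid list 2 of 35 were called higher and 1 lower (3 and 0 without A7). The lower call there was lost without A7, H6, A3 or D3. The 20 aminoacyl-tRNA synthetases had 2 higher (10.0%) and 1 lower (5.0%), and without A7 both counts were 0. The higher count was 1 without H6, C3 or D3, and the lower count was 0 without F6, B7, A3, B3, C3 or D3. DNAJB1, a co-chaperone of HSP70, rose by 0.91 on the log2 scale (adjusted p = 3.37e-06), within a heat shock list of 3 higher and 1 lower of 15 (4 higher and 1 lower without A7, 0 lower without A3, 2 lower without H2). In the lists of Ras-ERK feedback, FOXO and MondoA targets, autophagy and lysosome, ribosome biogenesis, NRF2 targets, heme and iron, and keratins and adhesion, at most 2 members were called in a direction. Without A7 the higher calls were 4 for Ras-ERK feedback and 3 each for FOXO and MondoA targets, ribosome biogenesis and NRF2 targets, and the other lists here had at most 1 call in a direction.

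**Figure D5:**
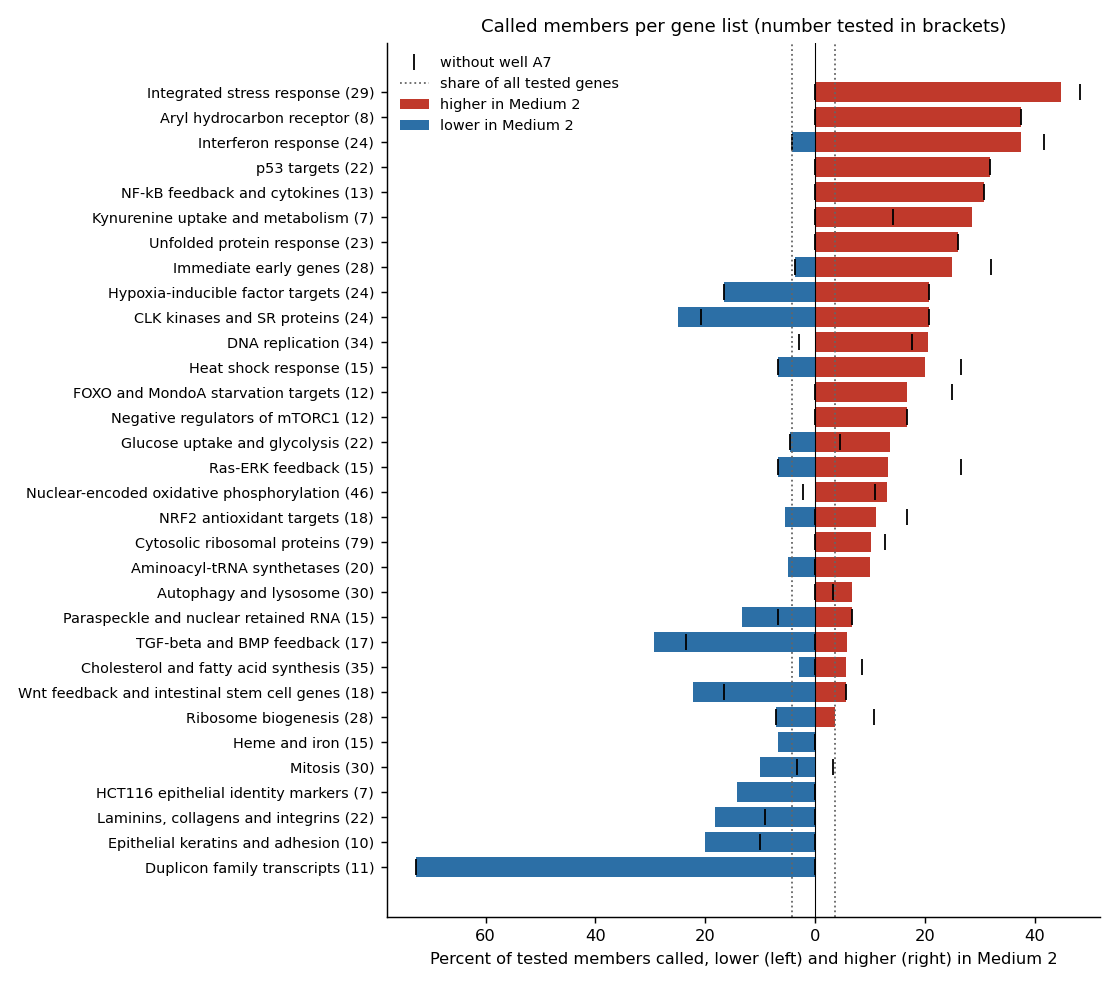
Percent of tested members of each gene list called higher or lower in Medium 2 (horizontal axis), with ticks for the fit without well A7 and dotted lines at the shares of all tested genes, 3.73% higher and 4.28% lower. The integrated stress response, with 13 of 29 members higher, and the duplicated gene families, with 8 of 11 lower, stand farthest from these lines. The list of duplicated families was set up with their fall already seen in these data, so its share is built in.

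Among the lower genes, feedback targets of TGF-beta and BMP signalling had 5 of 17 tested members called lower and 1 higher, with a median of −0.37. Without A7 the counts were 4 lower and 0 higher. The higher count was also 0 without G6, A3, C3 or D3, and 2 without B3. SMURF2, 1 of the 5 lower, lost its call without A7 and without each other kynurenine library except B7. All genes called lower were 4.28% of those tested. SMAD7, the inhibitory SMAD, had 4.18, 1.65, 7.31, 0.651 and 5.19 CPM in Medium 2, against 24.9, 16.6, 14.7, 11.5 and 17.9 CPM in Medium 1. The groups did not overlap, with A7 lowest (log2 fold change −2.09, SE 0.36, adjusted p = 4.27e-05). ID1, a helix-loop-helix inhibitor of differentiation, had 243, 165, 200, 157 and 227 CPM in Medium 2, against 381, 320, 438, 339 and 321 CPM in Medium 1. Again no libraries overlapped (log2 fold change −0.86, adjusted p = 3.2e-06). ID2 fell by 0.64 and ID3 by 0.69 on the log2 scale.

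Wnt feedback and stem cell genes had 4 of 18 called lower (22.2%) and 1 higher (5.56%), against 4.28% and 3.73% of all genes. The higher gene was the receptor gene EPHB3 (log2 fold change 1.67), whose call was lost without G6, H6, H2 or A3. AXIN2, a negative regulator of beta-catenin, averaged 4.04 ± 2.20 CPM in Medium 2 and 10.9 ± 2.53 CPM in Medium 1 (SD, n = 5 each, log2 fold change −1.40, adjusted p = 0.00503). RNF43, a ligase that removes Wnt receptors, averaged 12.9 ± 3.15 CPM in Medium 2 and 24.4 ± 2.65 CPM in Medium 1 (log2 fold change −0.93, adjusted p = 0.00262). The groups did not overlap for either gene. HES1, described above, is the third. The call of SOX9, a factor of intestinal stem cells, was lost without A7 (adjusted p = 0.0793), F6, G6, H6, H2, A3 or B3, each of which left 3 lower.

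Matrix genes were led by a laminin and a collagen. LAMA5, a basement membrane laminin chain, had 12.5, 7.72, 11.6, 1.95 and 15.6 CPM in Medium 2, against 48.4, 35.4, 52.8, 42 and 40.03 CPM in Medium 1. A7 was lowest, and no Medium 2 library came near Medium 1 (log2 fold change −2.11, SE 0.24, adjusted p = 2.75e-09). COL27A1, a fibrillar collagen, averaged 3.20 ± 1.46 CPM in Medium 2 and 17.7 ± 3.48 CPM in Medium 1 (SD, n = 5 each, log2 fold change −2.51, adjusted p = 1.46e-06). They are 2 of 4 lower calls among 22 tested laminins, collagens and integrins (18.2%, against 4.28% of all genes). The other 2, the laminin chains LAMB1 and LAMC1, lost their calls without A7 (adjusted p = 0.161 and 0.163). The lower count was thus 2 without A7, and also 2 without G6, A3, C3 or D3.

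Nuclear RNA and splicing regulators changed in both directions. NEAT1, the long RNA that builds paraspeckles, lies at chr11:65422798-65445540. The sample labels call the RNA cytoplasmic while their protocols describe no fractionation, so how much nuclear RNA the libraries hold is not known. It had 10.8, 7.17, 10.7, 5.20 and 6.75 CPM in Medium 2, against 34.4, 31.7, 30.8, 40.1 and 47.8 CPM in Medium 1. The groups were far apart (log2 fold change −2.16, SE 0.30, adjusted p = 6.12e-07). MALAT1, another nuclear RNA, averaged 1043 ± 165 CPM in Medium 2 and 1742 ± 430 CPM in Medium 1 (SD, n = 5 each, log2 fold change −0.74, adjusted p = 0.0351); its call was lost without A7 (adjusted p = 0.057), G6, H6, B7, A3, C3 or D3 (highest adjusted p = 0.138, without D3).

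Of 24 CLK kinases and SR proteins, 5 were called higher and 6 lower, and 5 and 5 without A7. CLK1, a kinase of splicing factors, had 72.9, 119, 73.5, 67.7 and 63.8 CPM in Medium 2, against 31.2, 26.8, 32.3, 30.1 and 34.6 CPM in Medium 1. CLK4, its close relative, averaged 25.6 ± 6.71 CPM in Medium 2 and 7.54 ± 3.4 CPM in Medium 1 (SD, n = 5 each, log2 fold change 1.74, adjusted p = 8.81e-05), and CLK1 had a log2 fold change of 1.36 (adjusted p = 2.77e-07). Neither gene had overlapping libraries. CLK2 ran the other way, at 18.3 ± 3.81 CPM in Medium 2 and 37 ± 7.57 CPM in Medium 1 (log2 fold change −1.01, adjusted p = 0.00185). PNISR, a serine-arginine-rich protein of nuclear speckles, fell by 1.08 on the log2 scale.

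The deepest falls were in duplicated gene families, where reads of near-identical copies may have been shared out and each member is uncertain. Of 11 tested members of these families 8 were called lower (72.7%, against 4.28% of all genes) and 0 higher, with a median of −2.01 (8 lower without A7). The list was set up with the same behaviour already seen in these data. PILRB, a receptor gene that overlaps a read-through transcript with STAG3L5P, had 6.57, 3.86, 1.29, 1.30 and 1.04 CPM in Medium 2, against 16.3, 22, 16.9, 18.6 and 33.5 CPM in Medium 1 (log2 fold change −2.94, adjusted p = 2.75e-09). GOLGA8B, a golgin copy, averaged 4.61 ± 3.64 CPM in Medium 2 and 27.5 ± 3.56 CPM in Medium 1 (SD, n = 5 each, log2 fold change −2.51, adjusted p = 5.59e-07). In both genes no Medium 2 library reached a Medium 1 library. GOLGA8A, NPIPA1, NPIPA5, CROCCP2 and the read-through STAG3L5P-PVRIG2P-PILRB, all duplicated or overlapping, were also among the 12 largest falls, with log2 fold changes from −2.93 in CROCCP2 to −2.15 in NPIPA1.

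Epithelial markers of HCT116 were present in both media. Of 7 tested epithelial markers of this line 0 were called higher and 1, the keratin KRT19, lower (log2 fold change −0.39), a call lost without A7 (adjusted p = 0.0543), G6, H6, B7, B3 or D3. Their summed level was 1288 to 1702 CPM in Medium 2 and 1453 to 1731 CPM in Medium 1. Of 19 markers of fibroblasts, endothelial, immune and erythroid cells 16 were in the table, and COL1A1 alone had enough counts to be tested and was not called. Their summed level was 4.15 to 10.5 CPM in Medium 2 and 6.98 to 13.6 CPM in Medium 1.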

How the data were processed

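RNA was measured by QuantSeq 3′ FWD sequencing with unique molecular identifiers in 60 libraries, 5 in each of 12 groups, per the labels' protocols. The authors deposited 1 table of estimated counts per gene, with 29744 genes and 60 columns. The tools named are Salmon 1.5.2, STAR, UMI-tools 1.1.2, cutadapt 3.4 and FastQC 0.11.9 with the genome GRCh38, per the submitters' processing notes. The order and settings of these tools, the gene annotation and the treatment of reads shared by near-identical genes were not given in the sources used here. Of the deposited estimated counts, 10.1% were not whole, and all were rounded before testing.

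Groups came from the sample titles. The titles call the 5 samples of a group biological replicates, and nothing used here says that they came from separate cultures, so p-values measure only the spread between these samples. Genes were kept by filterByExpr (minimum count 10, minimum total 15), which left 11298 genes with 99.62% of counts. Libraries were scaled by TMM, and 1 quasi-likelihood model with a mean per group was fitted to all 60 libraries with edgeR 4.0.16 in R 4.3.3 (48 residual degrees of freedom, common dispersion 0.0316). Contrasts were Medium 2 minus Medium 1 under kynurenine and its difference from the same contrast in untreated spheroids, in hemin plus kynurenine and in the mean of the other 5 treatments. F-tests were two-sided, with Benjamini-Hochberg adjustment over all tested genes and a threshold of 0.05. A 3′ count rests on few molecules for low genes, so levels near 1 CPM are imprecise.

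The libraries, the 34 gene lists and the tests were chosen with earlier results of these data known. Named genes were the 12 largest rises and falls among called genes with a mean of 10 CPM or more in the higher medium and no overlap of libraries, the 3 members of each list with the smallest p, 14 genes of the AHR, kynurenine, stress and growth pathways whatever their result, genes leading the interactions, and the 8 highest and 8 lowest genes of A7. Other list members were named after their values were seen, and not every gene of the rule is printed. Alternatives were other scalings and filters, DESeq2 1.42.0, limma 3.58.1 voom with sample weights, plate row as a term, thinning to equal depth, the compared groups alone, and leaving out each library. Promoter sequences are from RefSeq GRCh38.p14, matched by symbol.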

Additional observations from a re-analysis of the deposited data

Results flagged for a closer look

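In groups of 5 libraries, a value was marked where the gap between the highest or lowest library and its neighbour took up most of the range of the group. Chance marks about 1 in 20 groups, and 14 of 176 were marked, 5 of them in well A7. As measures of the library, the distance of A7 from its group (0.768) and its median correlation with it (0.909) were marked. Among genes, A7 was lowest of Medium 2 for CYR61 (1.30 CPM) and VEGFA (53.3 CPM) and highest for SLC1A4 (9.76 CPM). B7 was highest of Medium 2 for ATF3 (147.9 CPM) and SOX9 (139.6 CPM), and G6 for CLK1 (119 CPM).

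In Medium 1, well H2 was highest for ANKRD37 (35.3 CPM), MTHFD2 (497 CPM) and TSC22D3 (21.2 CPM) and lowest for IFIT2 (62.4 CPM). Well A3 was highest for SESN2 (27.4 CPM) and well C3 lowest for IL8 (6.69 CPM). The calls of these genes other than SOX9 and CYR61 held in every alternative in which the gene was tested, those without the marked library included; SLC1A4 was tested in 17 of 20.

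The medium difference under kynurenine differed from that in untreated spheroids, by the interaction test of edgeR, for TIPARP (−1.80 log2 units) and HES1 (−1.57 log2 units). The HES1 call was lost without A7 and TIPARP's was not.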

How the results depend on the processing

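Counts of higher and lower genes stayed within 1.5 times 421 and 484 under all alternatives except the fit of the compared groups alone, which gave 139 higher and 198 lower genes. Leaving out each library gave 313 to 552 higher and 332 to 405 lower genes. A fit of only the 9 kynurenine libraries other than A7, chosen after seeing the data, gave 293 and 345; why these lie above the counts from all 10 was not tested. Higher genes were 46.5% of the calls, 38.1% with upper quartile scaling (346 higher, 563 lower), 51.2% with RLE scaling (473 higher, 451 lower) and 57.9% without F6 (552 higher, 402 lower). The interaction against untreated spheroids, with 2 genes, gave 1 with the compared groups alone, 7 without a filter on low counts, 6 with DESeq2, 7 with voom, 5 with plate row as a term and 1 to 5 on leaving out a library. The interaction against hemin plus kynurenine, with 0 genes, gave 1 with DESeq2, 1 after thinning and 0 to 27 on leaving out a library. The interaction against the mean of the other 5 treatments, with 0 genes, gave 1 with upper quartile scaling, 1 without the filter, 1 with DESeq2, 1 with voom and 0 to 1 on leaving out a library. Libraries were left out of the kynurenine groups only. The cause was not tested. Of 97 named genes that were called, 57 kept their call in each of the 20 alternatives in which they were tested, as did 73 of 149 called list members, and 0 reversed. No paired analysis was possible because the columns carry wells and no replicate numbers. Genes near 1 CPM, such as SMAD7 and PILRB in Medium 2, rest on few counts per library.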
